A study of Mus musculus with 4 samples.

Results

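The 10 genes described here encode chains of the collagens that build the interstitial matrix: Col1a1, Col1a2, Col3a1, Col5a1, Col5a2, Col6a1, Col6a2, Col6a3, Col12a1 and Col14a1. They were taken by symbol from the 55401 gene identifiers of the deposited count table, and each symbol matched 1 identifier. RNA-seq libraries came from pancreatic tissue beside tumours in mice of a pancreatic ductal adenocarcinoma model, with Panc02, a mouse pancreatic cancer line, given as the cell line. Of the 4 libraries, 2 were from wild-type (WT) mice and 2 from conditional CRFR1 knockout mice (CRFR1-KO), CRFR1 being the receptor for corticotropin-releasing factor encoded by Crhr1. The series asks, by its title, about CRFR1 of mast cells in pancreatic cancer pain. No source used here gives the Cre driver, the strain or the age. Nothing in the labels states that each library is a separate animal, and p-values then measure only the spread between libraries, which may be technical.

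Collagens are made as procollagen chains that wind in threes into a triple helix in the endoplasmic reticulum. After secretion, proteases remove the end propeptides and the helices of types I, III and V assemble into cross-linked fibrils. Type I is the main fibril protein of scar and stroma, type III accompanies it in soft tissue, and type V sits in the fibril core and limits its width. Type VI is not a fibrillar collagen in the strict sense, since its 3 chains form beaded filaments around cells and fibrils. Types XII and XIV are fibril-associated collagens that coat the fibril surface. In the pancreas these genes are expressed mainly by fibroblasts and stellate cells, and dense collagen stroma is a hallmark of pancreatic ductal cancer.

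RNA depth lay between 63495457 and 71203640 counts per library. The library labelled WT 1 stood apart from the other 3 for several gene groups, so the fitted differences of the members, the pathway lists and the genes named from them are also given without it. Crhr1 had 0 counts in all 4 libraries, which left no check of genotype (a floor of 3 counts corresponds to 0.0363 to 0.048 CPM, which are counts scaled to the TMM-adjusted depth of each library). The tissue label was borne out by the acinar list, 25 genes mostly of digestive enzymes, which held 53.2% to 56.4% of the counts of every library. The 10 collagen genes made up 0.0599% of all counts of WT 1 (95% Wilson interval 0.0593 to 0.0604%) and 0.0153% of those of WT 2 (0.0150 to 0.0156%). The share was 0.0122% for CRFR1-KO 1 (0.0119 to 0.0125%) and 0.0165% for CRFR1-KO 2 (0.0161 to 0.0168%). WT 1 thus held the highest share by a wide margin, and the share in WT 2 lay between those of the CRFR1-KO libraries. Intervals and floors cover counting error only.

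To show what the members look like at the start of the gene, the 250 bases before the RefSeq start site (GRCm38.p6) are given for 3 of the 6 members found in the promoter table. Col3a1 was chosen as the most abundant member and Col5a1 as the one with the profile nearest the mean of the 10. Col6a3 was chosen because its direction, like that of Col6a1 and Col6a2, depended on a single library. The 3 printed windows overlap no annotated exon of the gene itself. Capitals mark the TATA box letters TATAAA and the GC box letters GGGCGG on either strand, the second a binding sequence of Sp1-type factors.
Col3a1 promoter, chr1:45311288-45311537, plus strand: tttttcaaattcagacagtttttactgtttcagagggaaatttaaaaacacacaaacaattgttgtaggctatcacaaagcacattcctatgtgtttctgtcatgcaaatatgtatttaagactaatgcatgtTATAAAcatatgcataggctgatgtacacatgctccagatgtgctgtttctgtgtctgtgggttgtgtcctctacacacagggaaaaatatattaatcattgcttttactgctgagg
Col5a1 promoter, chr2:27886175-27886424, plus strand: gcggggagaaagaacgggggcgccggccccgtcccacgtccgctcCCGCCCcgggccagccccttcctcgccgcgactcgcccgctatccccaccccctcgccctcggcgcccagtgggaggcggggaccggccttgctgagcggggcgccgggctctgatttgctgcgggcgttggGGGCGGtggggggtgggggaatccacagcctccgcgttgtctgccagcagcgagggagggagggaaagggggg
Col6a3 promoter, chr1:90843972-90844221, minus strand: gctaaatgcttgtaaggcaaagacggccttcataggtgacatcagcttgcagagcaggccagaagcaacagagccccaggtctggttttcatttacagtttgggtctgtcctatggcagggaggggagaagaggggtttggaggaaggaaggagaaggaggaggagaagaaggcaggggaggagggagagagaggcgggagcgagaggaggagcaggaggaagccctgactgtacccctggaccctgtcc
The Col3a1 window held 1 TATA box match, from -117 to -112 relative to the start site, and the Col5a1 window held 2 GC box matches, at -205 to -200 and -73 to -68. The Col6a3 window held none of the searched letters, which also included the CCAAT box (CCAAT on either strand). Over all 32851 promoter windows of the table, 32.7% held a GC box, 33.8% a CCAAT box and 12.4% a TATA box. None of the 3 motifs occurred in all of the printed windows. A match of letters is a description and not a binding site.

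Of the collagen types, type I had the highest fold of WT 1 over WT 2. Col1a1 (ENSMUSG00000001506, chromosome 11, 94936224 to 94953042, GRCm38 in GENCODE M21) encodes the alpha-1 chain, present in a pair in each type I molecule. Its level was 73.4 CPM in WT 1, 14.5 CPM in WT 2, 10.4 CPM in CRFR1-KO 1 and 11.2 CPM in CRFR1-KO 2. The 2 WT libraries thus lay 5.07-fold apart, while the CRFR1-KO libraries were within 1.07-fold of each other, and the groups did not overlap. WT averaged 43.9 ± 41.6 CPM and CRFR1-KO 10.8 ± 0.519 CPM (SD, n = 2 each). In the edgeR quasi-likelihood fit the log2 fold change, CRFR1-KO over WT, was -2.03 with a standard error (SE) of 0.64, and it did not pass (edgeR adjusted p = 0.941 over all 15131 tested genes). Without WT 1 the log2 fold change was -0.42, and without WT 2 it was -2.76 and passed (edgeR adjusted p = 0.000566).

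Col1a2 (ENSMUSG00000029661, chromosome 6, 4504814 to 4541544) encodes the alpha-2 chain of type I collagen. Its level was 96.1 CPM in WT 1, 31.1 CPM in WT 2, 21.5 CPM in CRFR1-KO 1 and 24.0 CPM in CRFR1-KO 2. WT 1 was again the outlying library and the groups did not overlap, with WT 2 above both CRFR1-KO libraries. The log2 fold change was -1.49 (SE 0.46), which did not pass (edgeR adjusted p = 0.941). It was -0.45 without WT 1, with WT 2 as the lone WT library, and did not pass (edgeR adjusted p = 0.534).

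Col3a1 (ENSMUSG00000026043, chromosome 1, 45311538 to 45349706) encodes the single chain of type III collagen. It was at 207.4 CPM in WT 1, 59.3 CPM in WT 2, 52.1 CPM in CRFR1-KO 1 and 57.8 CPM in CRFR1-KO 2. The groups did not overlap, but WT 2 lay above CRFR1-KO 2 by a small margin only. The log2 fold change of -1.28 (SE 0.51) did not pass (edgeR adjusted p = 0.9999), and it became -0.11 without WT 1. An annotated miRNA gene, Gm47302, shares 141 exon bases with Col3a1 on the same strand but held 1 or 2 counts per library.

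The type V chains join types I and III in mixed fibrils. Col5a1 (ENSMUSG00000026837, chromosome 2, 27886425 to 28039514) was at 23.2 CPM in WT 1, 7.85 CPM in WT 2, 6.94 CPM in CRFR1-KO 1 and 8.55 CPM in CRFR1-KO 2. Col5a2 (ENSMUSG00000026042, chromosome 1, 45374321 to 45503282) was at 17.9 CPM in WT 1, 6.62 CPM in WT 2, 4.18 CPM in CRFR1-KO 1 and 6.81 CPM in CRFR1-KO 2. For both chains WT 2 lay between the CRFR1-KO libraries, so the groups overlapped. With all libraries Col5a1 stood at a log2 fold change of -1.01 (SE 0.45) and Col5a2 at -1.16 (SE 0.46), and without WT 1 they stood at -0.02 and -0.27. Neither passed in edgeR with all libraries or without WT 1, and without WT 2 Col5a1 passed at -1.58 (edgeR adjusted p = 0.0181).

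Type VI collagen differed least among the multi-chain types. Col6a1 (ENSMUSG00000001119, chromosome 10, 76708792 to 76726168) was at 30.7 CPM in WT 1, 16.8 CPM in WT 2, 15.6 CPM in CRFR1-KO 1 and 19.3 CPM in CRFR1-KO 2. Col6a2 (ENSMUSG00000020241), its neighbour at 76595762 to 76623630 of the same chromosome, was at 28.04, 14.1, 12.4 and 16.3 CPM in that order of libraries. Col6a3 (ENSMUSG00000048126, chromosome 1, 90765923 to 90843971), the longest type VI chain of the set, was at 18.1, 6.54, 7.46 and 9.07 CPM. For each of the 3 chains WT 1 was highest and CRFR1-KO 2 lay above WT 2, so the groups overlapped. The log2 fold changes were -0.45 (SE 0.29), -0.55 (SE 0.32) and -0.58 (SE 0.42) in that order, none past the edgeR threshold. Without WT 1 all 3 had the opposite sign, at 0.06, 0.03 and 0.34, again without passing.

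For the fibril-associated chains WT 1 lay closer to WT 2, at 1.32-fold above it for Col14a1 and 0.707-fold of it for Col12a1. Col14a1 (ENSMUSG00000022371, chromosome 15, 55307750 to 55520803) was at 11.4 CPM in WT 1, 8.62 CPM in WT 2, 6.10 CPM in CRFR1-KO 1 and 6.58 CPM in CRFR1-KO 2. Both WT libraries lay above both CRFR1-KO libraries, at 9.99 ± 1.95 CPM and 6.34 ± 0.345 CPM (SD, n = 2 each). For Col14a1 the log2 fold change was -0.66 (SE 0.20), and -0.44 without WT 1 and -0.84 without WT 2. It did not pass in any of these fits (edgeR adjusted p = 0.941, 0.601 and 0.233). Col14a1 had the smallest SE of the 10 genes.

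Col12a1 (ENSMUSG00000032332, chromosome 9, 79598991 to 79718831) was close to the detection limit. Its counts were 42 for WT 1 and 47 for WT 2, then 0 for CRFR1-KO 1 and 4 for CRFR1-KO 2. The WT libraries were thus alike, and both lay above both CRFR1-KO libraries. Over scaled depth the summed counts were 19.2-fold higher in WT (95% exact interval 7.25 to 72.1, counting error only). The fitted log2 fold change of -4.23 (SE 1.26) depends on the prior count, and it did not pass (edgeR adjusted p = 0.892, the smallest of the 10). Counts of 4 were more frequent than their neighbours in every library (862 genes in CRFR1-KO 2, against 342 with a count of 3 and 244 with 5), so what a single deposited count stands for is not settled.

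**Figure D1:**
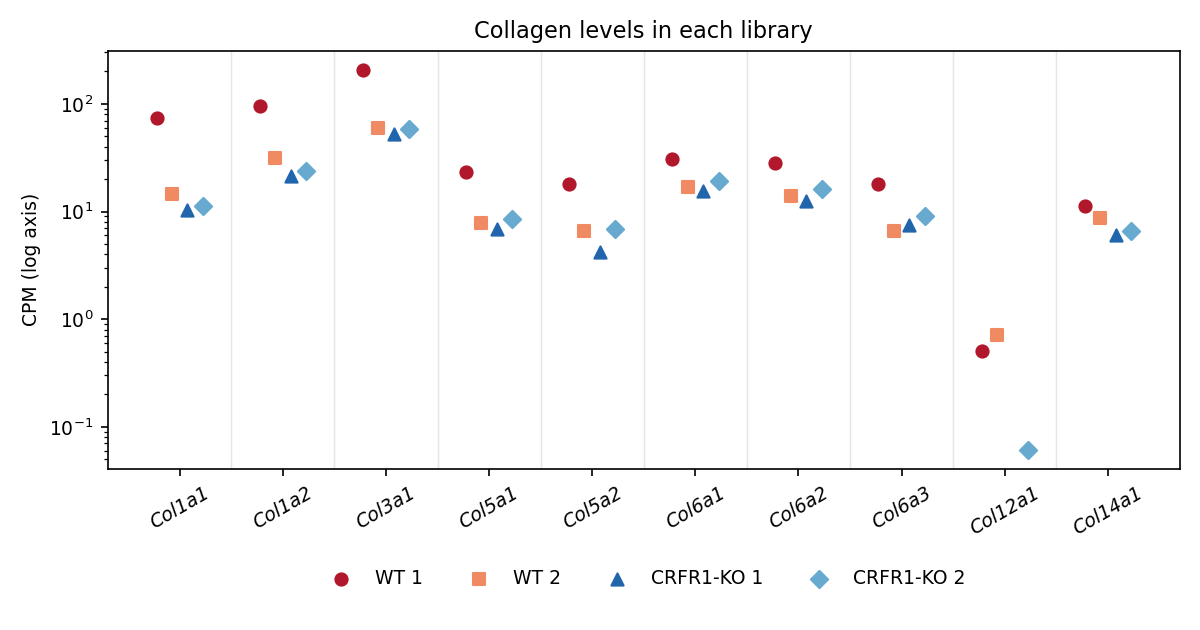
Level of each collagen gene (CPM, log axis) in WT 1, WT 2, CRFR1-KO 1 and CRFR1-KO 2, 1 point per library. WT 1 is the highest point for 9 of the 10 genes, while for Col12a1 the highest is WT 2 and CRFR1-KO 1, at 0, is not drawn.

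Read together, 10 of 10 collagen genes had a negative log2 fold change, against 50.8% of all tested genes, and 0 of 10 passed the edgeR adjustment, against 0.0264% of all tested genes (4 of 15131). All 10 passed the filter on low counts. At an unadjusted p under 0.05, 6 of 10 were lower, against 3.15% of all tested genes. DESeq2 called 0 of 10 (background 0.377%) and limma-voom 0 of 10 (background 0%), and at an unadjusted p under 0.05 they had 6 and 4 members lower (background 3.15% and 2.71%). That count depended on the fit and the libraries, with 3 members under robust estimation (background 3.07%), 2 without WT 1 (4.07%), and 9 without WT 2 (4.29%). Leaving out CRFR1-KO 1 gave 1 member (2.2%), and leaving out CRFR1-KO 2 gave 2 (2.54%). Other settings with all 4 libraries also called 0 members, against 0.0266% of all genes when 1 count in some library was enough, 0.0227% with 10 counts required in every library, 0.0491% with counts divided by 4 and 0.0463% with a replicate block. The median log2 fold change was -1.08 over the members and -0.01 over all tested genes. Both WT libraries lay above both CRFR1-KO libraries for 5 members (Col1a1, Col1a2, Col3a1, Col12a1 and Col14a1), where 16.9% of all tested genes did so. Fewer collagen-making cells and less collagen RNA per cell cannot be told apart in bulk tissue.

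The size of the group difference rested on WT 1. Without it, 7 of 10 members were lower (48.9% of all tested genes), the median was -0.19, and 0 were called (background 0.253%). Leaving out CRFR1-KO 1 or CRFR1-KO 2 called 0 members, against 0.0124% and 0% of all tested genes. Without WT 2, 10 of 10 were lower, the median was -1.64, and 4 were called lower (Col1a1, Col1a2, Col3a1 and Col5a1, background 0.287%, or 0.43% in either direction). In these fits the lone library of a group is assumed to vary like the other group. WT 1 was the highest of the 4 libraries for 9 of 10 members, against 26.1% of all tested genes. The log2 difference WT 1 over WT 2 had a median of 1.38 over the members, and of 0.01 over all tested genes with quartiles of -0.24 and 0.30.

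**Figure D2:**
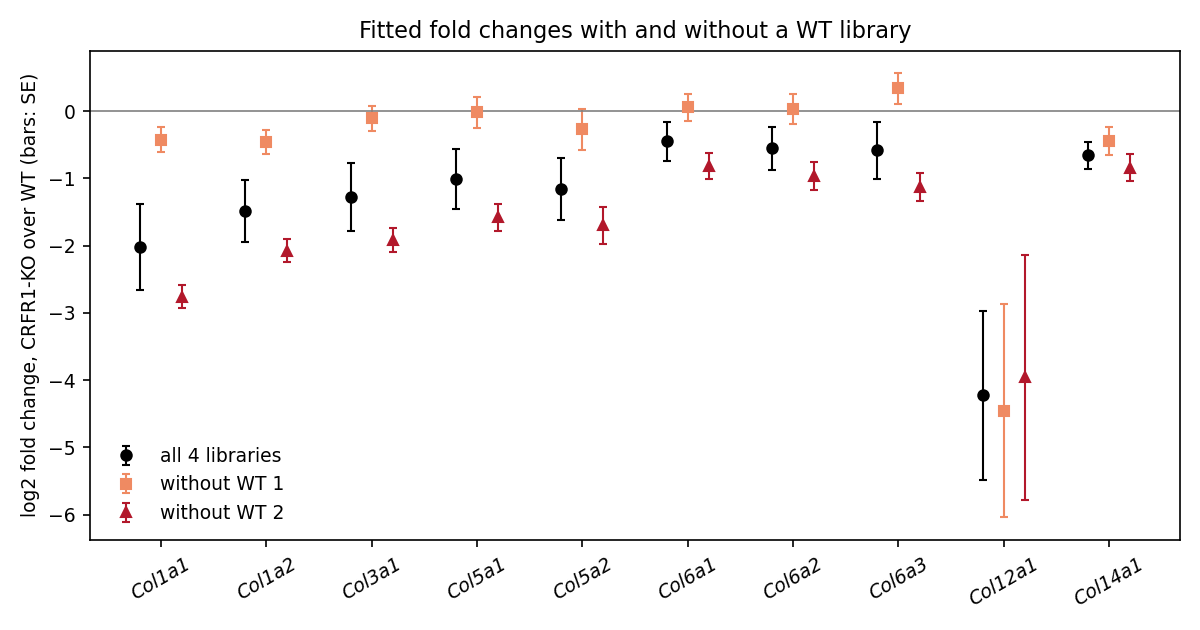
Fitted log2 fold change, CRFR1-KO over WT, of each collagen gene with all 4 libraries, without WT 1 and without WT 2 (edgeR, bars are SE). Without WT 1 the fibrillar and type VI chains move towards 0, with Col6a3 at 0.34, whereas Col14a1 stays at -0.44 and Col12a1 at -4.45.

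Collagen types differed in how far WT 1 stood above WT 2. The summed CPM of the chains was 3.71-fold higher in WT 1 for type I, 3.50-fold for type III, 2.84-fold for type V, 2.06-fold for type VI and 1.27-fold for types XII and XIV together. The make-up of the collagen counts shifted accordingly. Type I chains took 33.4% of the counts of the 10 genes in WT 1 (95% Wilson interval 33.0 to 33.9%), 27.5% in WT 2 (26.6 to 28.3%), 23.3% in CRFR1-KO 1 (22.4 to 24.2%) and 22.0% in CRFR1-KO 2 (21.2 to 22.8%). Type VI chains took 15.2% in WT 1 (14.8 to 15.5%), 22.5% in WT 2 (21.7 to 23.3%), 26.0% in CRFR1-KO 1 (25.1 to 26.9%) and 27.97% in CRFR1-KO 2 (27.1 to 28.8%). Both WT libraries thus held a larger share of type I and a smaller share of type VI than either CRFR1-KO library. The intervals of the groups did not overlap, but they treat deposited counts as independent reads, which is not settled. Shares of the same total are also tied to each other. The summed type VI level of WT 2 (37.4 CPM) lay between those of CRFR1-KO 1 (35.5 CPM) and CRFR1-KO 2 (44.6 CPM). An exact permutation test of 2 libraries against 2 cannot reach 0.05, so no test is given for these shares. Type III took 35.7% to 40.9% in every library.

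**Figure D3:**
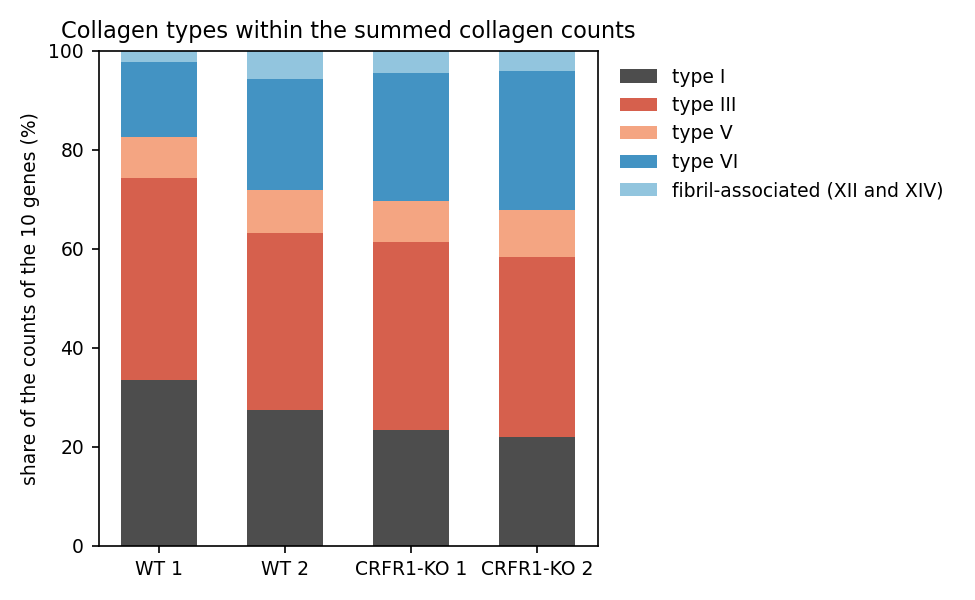
Share (%) of the counts of the 10 collagen genes that belongs to each collagen type, 1 bar per library. The type I segment is 33.4% and 27.5% in WT but 23.3% and 22.0% in CRFR1-KO, and the type VI segment is 15.2% and 22.5% in WT but 26.0% and 27.97% in CRFR1-KO.

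Chain ratios within a collagen type were compared as CPM per kb of exon, since levels of different genes compare only per length. The ratio of Col1a1 to Col1a2 was 1.45 for WT 1, against 0.881 for WT 2, 0.919 for CRFR1-KO 1 and 0.883 for CRFR1-KO 2. WT 1 had the highest ratio, and the other 3 libraries lay close together. With the longest transcript as the length, the ratio was 0.689 in WT 1 and 0.420 to 0.438 in the others. Another length scales all 4 libraries alike, so which chain is the higher depends on the length chosen and the fold between libraries cannot. The ratio of Col3a1 to Col1a1 was 1.89 in WT 1 and 2.74 in WT 2, and 3.34 and 3.46 in the CRFR1-KO libraries 1 and 2. Col6a2 to Col6a1, 2 chains of 1 molecule, kept a ratio of 0.418 to 0.480 in all 4 libraries. Per kb of exon, Col3a1 had the highest level of the 10 genes in every library (5.31 to 21.1 CPM per kb) and Col12a1 the lowest (0 to 0.0472 CPM per kb).

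By root mean square distance of centred log2(CPM + 0.5) profiles over the 4 libraries, the genes most like the mean of the 10 collagens among 5726 candidates were Bgn (0.07), Lgals3bp (0.09), Fads2 (0.11), Lum (0.11), Sned1 (0.12) and Sparc (0.12), where the median candidate lay at 0.64. Bgn encodes biglycan, a small proteoglycan that binds collagen, and was at 46.1 CPM in WT 1, 18.5 CPM in WT 2, 13.4 CPM in CRFR1-KO 1 and 17.9 CPM in CRFR1-KO 2. In that order of libraries, Lgals3bp was at 23.8, 9.69, 7.26 and 10.3 CPM and Fads2 at 32.0, 14.9, 12.3 and 15.4 CPM. Sparc encodes a collagen-binding matricellular protein and was at 75.3 CPM in WT 1 and 27.8 to 28.8 CPM in the other libraries. Among the members, Col5a1 lay nearest to that mean profile (0.12) and Col1a1 and Col12a1 farthest (0.53 each).

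Genes that make and process procollagen did not share one pattern. Of 19 tested folding and modification genes, 13 were lower and 6 higher, 0 passed in edgeR and the median log2 fold change was -0.08, near that of all genes. The prolyl isomerase gene Fkbp10 stood at -1.12 (SE 0.47), the calcium-binding chaperone gene Rcn3 at -0.82 (SE 0.36) and the prolyl 3-hydroxylase family gene P3h3 at -0.79 (SE 0.33). Plod3, a lysyl hydroxylase and glycosyltransferase gene, was on the other side at 0.42 (SE 0.18). Without WT 1, 8 of 19 were lower and the median was 0.13, with Fkbp10 at -0.42, Rcn3 at -0.36, P3h3 at -0.53 and Plod3 at 0.55. Of 7 tested propeptide-processing genes, 6 were lower with a median of -0.94, and 0 passed. Adamts2, the protease gene for the amino-terminal propeptide, was at 8.08 CPM in WT 1, 4.83 CPM in WT 2, 2.83 CPM in CRFR1-KO 1 and 3.25 CPM in CRFR1-KO 2, with the groups apart (log2 fold change -1.09, SE 0.29). The carboxy-terminal protease gene Bmp1 stood at -0.63 (SE 0.32) and its enhancer gene Pcolce at -0.94 (SE 0.40). Tll2, a Bmp1 relative, had 0 counts in both WT libraries and 12 and 30 in CRFR1-KO. Without WT 1, 5 of 6 tested processing genes were lower, with a median of -0.26, and Adamts2 stood at -0.66, Bmp1 at -0.14 and Pcolce at -0.14.

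Genes for proteins that bind the finished fibril leaned lower in RNA. Of 14 tested regulators, 12 were lower and 2 higher, with a median of -0.56 and 0 past the edgeR threshold. Aspn (asporin) stood at -1.63 (SE 0.37), Thbs2 (thrombospondin 2) at -2.10 (SE 0.60), Lum (lumican) at -1.14 (SE 0.34) and Bgn at -1.04 (SE 0.40). Without WT 1, 10 of 13 were lower with a median of -0.21, and Aspn stood at -1.22, Thbs2 at -0.97, Lum at -0.52 and Bgn at -0.23. Without WT 2, 4 were called lower (Lum, Bgn, Sparc and Thbs2, background 0.287%). Of 12 tested collagen receptor and uptake genes, 9 were lower (median -0.14, 0 called), with the inhibitory receptor gene Lair1 at -1.47 (SE 0.58), the collagen-binding integrin gene Itga11 at -0.83 (SE 0.58), and Antxr1 and Antxr2, 2 anthrax toxin receptor genes, at -0.80 (SE 0.32) and -0.32 (SE 0.19). Without WT 1, 9 of 12 were lower with a median of -0.17, and Lair1 stood at -1.55, Itga11 at -1.06, Antxr1 at -1.04 and Antxr2 at -0.26.

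The remaining collagens and the regulators of collagen transcription gave no common direction. Of 17 further fibrillar, type VI and fibril-associated collagen genes listed, 16 were found in the table, 7 had 0 counts in every library and 8 were tested. Of these 8, 5 were lower and 3 higher (median -0.40, 0 called), and without WT 1 only 2 were lower (median 0.20). Col6a5 stood at -2.41 (SE 1.24), Col9a3 at -1.41 (SE 1.03), Col16a1 at -1.06 (SE 0.60) and Col27a1 at -0.57 (SE 0.36), and without WT 1 the first 3 were on the higher side and Col27a1 stood at -0.66. Of 17 transcription factor genes, 5 were lower and 12 higher with a median of 0.13, which became -0.04 with 10 lower when scaled on library totals. Prrx1, a fibroblast homeobox gene, was at -0.65 (SE 0.33), Nfya, a subunit of the CCAAT-binding factor, at 0.35 (SE 0.28), Creb3l2 at 0.35 (SE 0.29) and Smad3, a transducer of TGF-beta, at -0.27 (SE 0.22). Without WT 1, 4 of 17 were lower with a median of 0.18, and Prrx1 stood at -0.29, Nfya at 0.32, Creb3l2 at 0.89 and Smad3 at 0.050. None passed in edgeR in either fit.

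Taken as a list, fibroblast markers did not follow the collagens within WT, but single markers split. The list held 15 fibroblast markers without collagens, of which Dcn, Lum, Dpt and Podn are also on the list of fibril regulators. Over these 15 the log2 difference WT 1 over WT 2 had a median of 0.07, against 1.38 for the collagens. WT 1 was the highest library for 5 of 15. On that log2 scale the largest rises in WT 1 were those of Fbln1 (1.21), Thy1 (1.11), Lum (0.999) and Podn (0.638). The largest falls were those of Dpp4 (-0.973), Pi16 (-0.694) and Pdgfra (-0.445). Between genotypes, 12 of 15 were lower with a median of -0.45, 8 had both WT libraries above both CRFR1-KO libraries (background 16.9%) and 0 passed in edgeR. Without WT 1, 10 of 15 were lower with a median of -0.49, and Mfap5 stood at -1.20 and Pdgfra at -0.98. The microfibril gene Mfap5 was at 4.66 CPM in WT 1, 3.59 CPM in WT 2, 1.55 CPM in CRFR1-KO 1 and 1.56 CPM in CRFR1-KO 2, a fitted difference of -1.41 on the log2 scale (SE 0.28), and Pdgfra, the alpha receptor for platelet-derived growth factor, at 8.55, 11.8, 5.34 and 6.66 CPM (-0.76, SE 0.23). The summed CPM of the markers was 245.2 for WT 1 and 253.2 for WT 2, with 159.7 for CRFR1-KO 1 and 232.8 for CRFR1-KO 2, of which Gsn and Dcn made up 71.5% to 76.7%. The summed collagens per summed fibroblast marker came to 2.07 for WT 1 and 0.656 for WT 2, with 0.857 for CRFR1-KO 1 and 0.685 for CRFR1-KO 2, so that WT 1 was the highest. Without Dcn and Lum among the markers, but with Dpt and Podn kept, the ratio was 3.10 for WT 1 and 1.06 for WT 2. It was 1.37 for CRFR1-KO 1 and 0.927 for CRFR1-KO 2, with WT 1 again the highest and another library the lowest.

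Several other cell markers moved with the collagens in WT 1, and their part in the result was not tested. All 6 proliferation markers and all 7 macrophage markers were highest in WT 1. The proliferation list summed to 11.2 CPM in WT 1 and 1.07 to 3.77 CPM in the other libraries, and the macrophage list to 73.6 CPM in WT 1 and 24.6 to 45.2 CPM in the others. Between genotypes 7 of 7 macrophage markers were lower in CRFR1-KO (median -0.84, 0 called in edgeR), 5 of 7 had both WT libraries above both CRFR1-KO libraries (background 16.9%), and 7 of 7 were lower without WT 1 (median -0.50). The acinar list had its lowest summed level on the TMM-adjusted depth in WT 1, at 452750 CPM against 547361 to 616750 CPM in the others. WT 1 was the highest library for 0 of the 25 acinar genes. As a share of raw counts the list held 53.5% in WT 1 and 53.2% in WT 2. The low rank of WT 1 thus depends on the scaling, whose TMM factor was 1.18 for WT 1 and 0.892 to 1.03 for the others. Islet markers were also lowest in WT 1, at 39.9 CPM in WT 1 and 235.1 to 292.1 CPM in the others, and the duct list, led by Spp1 (osteopontin), summed to 288.8 CPM in WT 1 and 168.9 to 199.9 CPM in the others. Endothelial markers lay between 34.5 and 46.3 CPM in every library, stellate and pericyte markers between 27.9 and 34.02 CPM and smooth muscle markers between 7.17 and 16.7 CPM and WT 1 was the extreme library in none of these 3. Schwann cell markers lay between 16.5 and 18.5 CPM, with WT 1 and CRFR1-KO 2 both at 18.5 CPM. Mesothelial markers summed to 1.65 CPM in WT 1 and 1.67 to 9.28 CPM in the others. Adipocyte markers summed to 0.336 to 5.79 CPM and lymphoid markers to 0.256 to 1.31 CPM, both highest in WT 2, with Lep, Cd3d and Ms4a1 at 0 counts in every library.

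**Figure D4:**
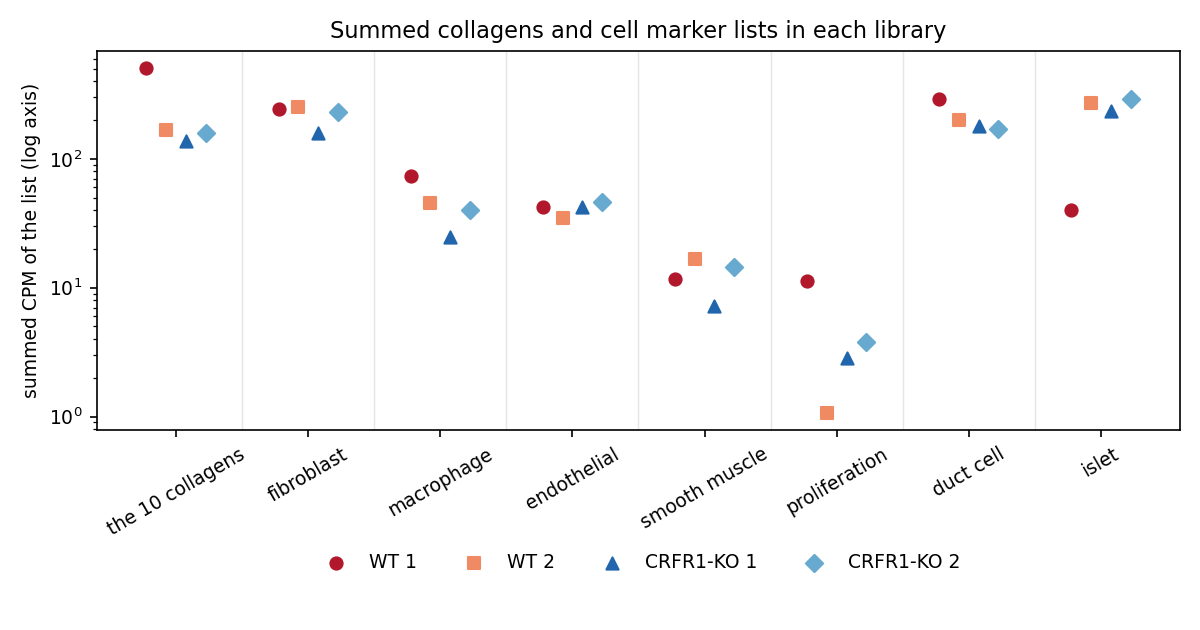
Summed CPM (log axis) of the 10 collagens and of marker lists for 7 cell types or states, 1 point per library. WT 1 is highest for the collagens and for the macrophage, proliferation and duct lists, lowest for the islet list, and within the range of the other libraries for the fibroblast, endothelial and smooth muscle lists.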

How the data were processed

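Poly(A) RNA from the 4 tissue samples was made into strand-marked (dUTP) libraries, per the labels' protocols. The authors deposited 1 table of whole-number counts per Ensembl gene, without normalization. FastQC, DESeq2 and edgeR are named in the submitters' processing notes. No source used here gives the aligner, counter, strand setting, annotation or genome build. Columns were tied to samples by library name, 0 columns were left over and 0 entries named no gene. Symbols, positions and exon lengths came from GENCODE M21 (GRCm38), which matched 55141 of 55401 identifiers.

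The fit used edgeR 4.0.16 under R 4.3.3 (TMM scaling, filterByExpr, a two-sided quasi-likelihood F test with genotype alone, Benjamini-Hochberg adjustment over 15131 genes, threshold 0.05). Each SE is the absolute log2 fold change over the root of F. Levels are CPM on scaled library sizes. Alternatives were DESeq2 1.42.0, limma-voom (limma 3.58.1), other scalings and filters, robust estimation, a threshold of 0.1, summed exon-sharing gene models, counts divided by 4, leaving out each library, and a replicate block.

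The members, lists and named-gene rule were chosen with earlier results of these data known. The rule named all 10 members and the 6 genes with at least 5 CPM nearest in profile. It also named up to 4 genes of smallest p per other list. For 8 marker lists, single genes were fitted under the alternatives but are given only as sums or counts. Promoter sequences are from RefSeq (GRCm38.p6), with 6 of 10 members matched.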

Additional observations from a re-analysis of the deposited data

How the results depend on the processing

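Every member kept a negative direction under all scalings, filters, tests and the replicate block, and 0 members passed the adjusted threshold under any setting that kept all 4 libraries. Leaving out each library moved the median log2 fold change of the members between -1.64 and -0.19, the members called between 0 and 4, and the genes called over the whole table between 0 and 69, against 4 with all libraries. The log2 fold change ranged over these fits from -0.81 to 0.059 for Col6a1, -0.96 to 0.031 for Col6a2, -1.13 to 0.34 for Col6a3, -4.86 to 0.31 for Col6a5, -2.15 to 0.26 for Col9a3, -1.71 to 0.22 for Col16a1, -0.52 to 0.050 for Smad3 and -0.035 to 0.89 for Creb3l2. The cause was not tested. Genes called over the whole table numbered 57 with DESeq2 (13 higher, 44 lower), 0 with limma-voom (692 at an unadjusted p under 0.05), 0 with exon-sharing models summed (701) and 7 with the replicate block. The replicate numbers are not known to pair the samples. Deviations of same-numbered libraries had a correlation of -0.07 across tested genes, which are not independent replicates, and the block left 0 members called with a median of -0.91. Scaling on library totals moved the median of all genes from -0.01 to -0.13 and the share of lower genes from 50.8% to 66.6%. The members then had a median of -1.27, and 4 of 10 had both WT libraries above both CRFR1-KO libraries (background 21.6%). Col12a1 was not tested under a minimum of 10 counts in every library. DESeq2 also called Mfap5 and Spp1 lower. At 0 to 47 counts, Col12a1 is the member most limited by depth. No correction could be made for library preparation or dissection, for which the labels give no batch.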
